A study of Mus musculus with 16 samples.

Results

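H3K4me3 was compared between quiescent (QSC) and activated (ASC) muscle stem cells of the mouse, 2 immunoprecipitated replicates and 2 input samples per state, 8 of the 16 samples of the series. The samples were chosen by their titles, and the values are those of the narrow peak lists, 14354 peaks in QSC and 15869 in ASC. Both groups came from skeletal muscle of C57BL/6 mice, with no other allele or agent named in the labels. The sources used here do not give how the cells were isolated or activated, nor the age and sex of the animals. The remaining 8 samples were profiled for H3K27me3, the mark laid down by Polycomb repressive complex 2. For H3K4me3 a narrow and a broad list were deposited per state, each named for both replicates, so no difference below has a replicate check and none was tested. Read depth is unknown from the lists, and coordinates are those of mm10 (GRCm38).

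Trimethylation of lysine 4 of histone H3 is written at gene starts by the SET1 and MLL complexes and removed by demethylases of the KDM5 family. It sits on the nucleosomes that flank the start of active genes and of genes poised for activity, and CpG islands carry it in most cell types. Wide and strong domains of the mark are known at genes that define a cell's identity. Muscle stem cells, also called satellite cells, rest under the basal lamina of the muscle fibre, leave quiescence after injury, and divide to make the myoblasts that rebuild muscle.

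Promoter sequences of 7 genes at which the rank or the call of the mark differed between the states are shown first. Each runs 5′ to 3′ on the strand of its gene from 250 bases before the start to 50 bases after it, taken from RefSeq (GRCm38.p6). Top2a (topoisomerase that untangles replicated DNA) and Cdca8 (borealin, a subunit of the chromosomal passenger complex) had the mark low in QSC and high in ASC. Cdc20 (activator of the anaphase-promoting complex) had no call in QSC. Its fold in ASC was 23.8, near the median of 22.6 for genes marked in both states. Capitals mark CCAAT, the box bound by NF-Y, and TTTGAA, the cell cycle homology element of genes expressed in dividing cells, on either strand.
Top2a, chr11:99024140-99024439, minus strand: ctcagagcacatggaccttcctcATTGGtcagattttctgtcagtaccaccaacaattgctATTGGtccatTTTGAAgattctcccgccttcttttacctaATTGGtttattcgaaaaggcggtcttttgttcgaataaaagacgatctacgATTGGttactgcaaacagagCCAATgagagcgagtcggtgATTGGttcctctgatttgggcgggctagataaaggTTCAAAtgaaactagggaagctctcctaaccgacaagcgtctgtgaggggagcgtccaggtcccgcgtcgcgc
Cdca8, chr4:124936868-124937167, minus strand: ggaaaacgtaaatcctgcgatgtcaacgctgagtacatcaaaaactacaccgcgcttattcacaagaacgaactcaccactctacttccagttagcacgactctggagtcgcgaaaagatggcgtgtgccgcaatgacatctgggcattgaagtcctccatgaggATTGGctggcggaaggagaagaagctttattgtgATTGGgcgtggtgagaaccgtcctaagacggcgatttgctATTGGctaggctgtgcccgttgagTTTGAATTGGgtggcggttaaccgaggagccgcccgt
Cdc20, chr4:118437294-118437593, minus strand: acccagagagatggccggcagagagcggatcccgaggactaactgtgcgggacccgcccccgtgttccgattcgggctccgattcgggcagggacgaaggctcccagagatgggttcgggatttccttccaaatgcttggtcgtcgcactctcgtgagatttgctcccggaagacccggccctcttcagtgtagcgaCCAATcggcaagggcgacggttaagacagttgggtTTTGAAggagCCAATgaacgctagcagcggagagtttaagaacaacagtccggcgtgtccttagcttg
Top2a held 6 CCAAT boxes and 2 TTTGAA elements in this window, Cdca8 held 4 and 1, and Cdc20 held 2 and 1. The next promoters belong to Psma6, a subunit of the proteasome core, and Psmd2, a subunit of its regulatory cap, which ranked higher in ASC. Capitals mark CCGGAAG, a motif of the ETS factors, on either strand.
Psma6, chr12:55398575-55398874, plus strand: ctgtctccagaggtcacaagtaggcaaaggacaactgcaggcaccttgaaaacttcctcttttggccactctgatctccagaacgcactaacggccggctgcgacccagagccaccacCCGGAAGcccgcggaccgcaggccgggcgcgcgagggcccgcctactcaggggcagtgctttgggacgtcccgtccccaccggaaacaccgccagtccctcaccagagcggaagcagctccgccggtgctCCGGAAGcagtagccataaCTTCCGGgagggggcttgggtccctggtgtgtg
Psmd2, chr16:20651402-20651701, plus strand: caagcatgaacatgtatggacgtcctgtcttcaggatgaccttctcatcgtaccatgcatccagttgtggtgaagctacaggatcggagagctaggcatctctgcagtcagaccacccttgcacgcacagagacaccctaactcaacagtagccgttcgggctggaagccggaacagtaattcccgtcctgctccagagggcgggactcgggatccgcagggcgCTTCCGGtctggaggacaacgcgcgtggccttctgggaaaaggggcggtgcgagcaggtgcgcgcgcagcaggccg
Per1 and Cry1, repressors of the circadian clock, ranked lower in ASC. Capitals mark CACGTG, the E-box of the clock activators, which reads the same on both strands.
Per1, chr11:69098699-69098998, plus strand: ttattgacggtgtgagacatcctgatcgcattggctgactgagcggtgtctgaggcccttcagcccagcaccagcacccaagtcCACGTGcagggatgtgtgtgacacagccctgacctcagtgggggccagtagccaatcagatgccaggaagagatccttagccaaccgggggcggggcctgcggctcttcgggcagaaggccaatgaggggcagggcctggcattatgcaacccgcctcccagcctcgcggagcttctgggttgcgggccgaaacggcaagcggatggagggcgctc
Cry1, chr10:85185005-85185304, minus strand: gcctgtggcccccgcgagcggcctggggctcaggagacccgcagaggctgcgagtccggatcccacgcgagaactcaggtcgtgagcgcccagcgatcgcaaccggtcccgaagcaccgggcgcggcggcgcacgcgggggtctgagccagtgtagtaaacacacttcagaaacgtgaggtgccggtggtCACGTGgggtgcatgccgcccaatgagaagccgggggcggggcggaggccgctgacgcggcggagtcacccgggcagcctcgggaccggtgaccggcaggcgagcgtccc
Of the 17492 protein-coding genes with a promoter in that table, 38.9% held CCAAT, 16.4% TTTGAA, 12.0% CCGGAAG and 7.95% CACGTG, on either strand and with overlaps between motifs allowed.

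The ASC list was longer than the QSC list and its peaks were wider. Peaks covered 24.4 Mb in QSC and 35.4 Mb in ASC, and the median peak was 1513 bp wide in QSC, against 2028 bp in ASC. Peaks above 4 kb made up 3.26% of the QSC list (468 peaks) and 9.10% of the ASC list (1444 peaks). Strong peaks were wide in both lists, with a rank correlation of fold and width of 0.75 over the 14354 QSC peaks and of 0.82 over the 15869 ASC peaks. The fold of a peak is its enrichment over background as the authors deposited it, and is used here to describe and rank peaks within a list. Its median was 10.4 in QSC (highest 37.3) and 16.3 in ASC (highest 56.0). Because the scales of the lists differ, states are compared below by rank.

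Most peaks of each list lay where the other state had one too. Of the QSC peaks, 726 had no ASC peak overlapping them by 1 bp or more (5.06%), and 2176 ASC peaks had no QSC peak (13.7%). With equal numbers of peaks kept these counts were 1146 and 1206, and the order turned with equal covered bases (6172 and 30) and with the broad lists (163587 and 9787). These single-state peaks were narrow and low in their lists: their median widths were 627.5 bp (QSC) and 815.5 bp (ASC), and 89.4% and 77.9% of them fell in the lowest 20% of their list by fold. Only 8 QSC and 130 ASC single-state peaks had a fold above 10, and 0 and 17 a fold above 20. Cut by fold into 10 classes from low to high, the QSC list had 67.4% of peaks overlapping an ASC peak in class 1, 99.4% in class 4 and 99.9% in class 10. The ASC list had 35.9% overlapping a QSC peak in class 1, 57.3% in class 2, 79.9% in class 3 and 99.9% in class 10. Of the single-state peaks, 86.5% in QSC and 88.2% in ASC lay over a peak of the other state's broad list, a second and more permissive list of the authors. The broad list of QSC held 184538 peaks over 254.9 Mb with a median −log10 q of 0. That of ASC held 29297 peaks over 88.8 Mb with a median of 0.76. Overlap with such lists need not mean a clear peak in the other state.

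**Figure D1:**
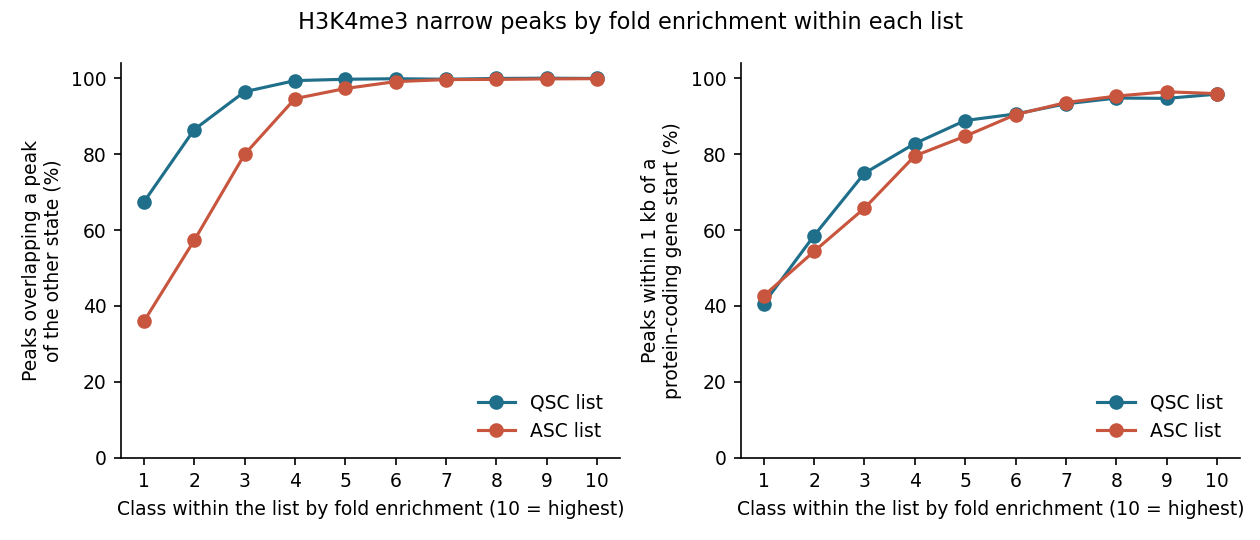
Share of narrow peaks that overlap a peak of the other state (left, %) and share within 1 kb of a protein-coding gene start (right, %), by class of fold within each list, 10 classes of about equal size (class 10 is the highest). Points are the classes of the QSC and ASC lists. The overlap starts at 67.4% in QSC and 35.9% in ASC and reaches 99.9% in class 10 of both lists.

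Starts of protein-coding genes held most of the mark. Within 1 kb of such a start lay 81.5% of QSC and 79.8% of ASC peaks, another 4.63% and 4.98% lay at the start of another kind of annotated gene, 8.89% and 9.41% in gene bodies and 4.93% and 5.77% outside gene records. Peaks at coding starts were mostly common to the states (98.0% of those in QSC and 92.2% in ASC), and peaks in gene bodies less so (79.3% and 60.5%). Of the single-state peaks, 31.5% in QSC and 45.2% in ASC lay within 1 kb of a coding start. H3K27me3 broad peaks covered at least 50% of the peak at 14.2% of the single-state and 6.67% of the shared peaks in QSC, and at 37.1% and 12.6% in ASC.

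At the level of genes, the mark was called at 11916 of 21887 protein-coding genes in QSC (54.4%) and at 12476 in ASC (57.0%), counting a narrow peak within 1 kb of a start. Both states shared 11755 genes. A further 161 genes were marked in QSC only (0.736%) and 721 in ASC only (3.29%). With equal numbers of peaks kept in the lists these counts were 317 and 498, and the order turned with equal covered bases (3665 and 52) and with the broad lists (1763 and 525).

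The label of the cells was checked against markers. All 16 markers of muscle stem cells had the mark in both states, among them the satellite cell transcription factor Pax7, Vcam1 and Itga7, surface proteins used to sort them, and Calcr, the calcitonin receptor. Of 14 immune markers, Ptprc (CD45) and Cd68 included, 0 had the mark in either state. Of 12 endothelial markers, QSC had 4 and ASC 5, with folds of at most 7.98 in QSC (Tek) and 7.41 in ASC (Kdr), and Pecam1 and Cdh5 were unmarked. Of 16 markers of the differentiated fibre, Atp2a1 was marked in both states and Ttn in ASC only. Of 12 markers of fibro-adipogenic progenitors, 4 were marked in QSC and 7 in ASC. Pdgfra, their defining receptor, had a fold of 5.24 in ASC and no call in QSC, and Dcn was unmarked. Of 11 markers of pericytes and smooth muscle, QSC had 8 and ASC 6, with Pdgfrb and Rgs5 unmarked and Myh11 and Tagln marked in QSC only. Notch3, Mcam and Acta2 were among those marked in both states, and their ranks, higher in QSC, are given below. Of 10 Schwann cell markers 4 were marked in each state, and Sox10 was not among them. Erbb3 was, with folds of 22.0 in QSC and 20.6 in ASC. Its strongest QSC peak was shared with another gene and did not overlap its strongest ASC peak. The part of other cells in the differences described below was not tested.

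For the 11755 genes marked in both states, each gene took the highest fold among its peaks and was placed at its percentile within the state, with 100 the highest. The order of genes was largely kept: Spearman's rho across genes was 0.79, as a description over genes that share libraries, and 49.8% of genes moved by less than 10 percentile points. The median absolute move was 10.1 points. A percentile higher by 20 points or more in ASC was found at 1407 genes (12.0%), and one lower by as much at 1443 (12.3%). Where percentiles were taken over all peaks of each list in place of the genes marked in both states, these counts were 1633 and 662. At these thresholds the nearest genes were Pgs1 (higher by 20.01 points) inside and Dcaf7 (19.997) just outside, and Neu1 (-20.02) inside and Ago4 (-19.98) outside.

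The highest folds of both lists included immediate early genes and genes of RNA-binding proteins. In QSC, Junb, a subunit of the AP-1 transcription factor, was first with a fold of 37.3. It was followed by Zfp36l2 (36.5), an RNA-binding protein that speeds mRNA decay, Phf23 (36.0), Zfp36 (34.8), of the same RNA-binding family, and Pim1 (34.6), a kinase induced by cytokines. Id3, an inhibitor of helix-loop-helix factors, Trib1 and Irs2, an adaptor of the insulin receptor, had 33.9, 33.4 and 32.9. In ASC Irf2bpl reached the highest fold of the list, 56.0. Midn and Ppp1r15b, a phosphatase subunit of the stress response, followed with 54.0 each, Ptma with 53.5, Pcbp1 with 53.3 and Jun, like Junb a subunit of AP-1, with 52.2. Leaders of one list ranked high in the other too. Of those named here, the lowest percentile in the other state was 91.9 for the QSC leaders (Id3) and 99.0 for the ASC leaders (Midn). Mafk, a small Maf factor and number 10 in QSC, stood at percentile 83.3 in ASC, and its domain shortened from 7314 to 3349 bp.

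**Figure D2:**
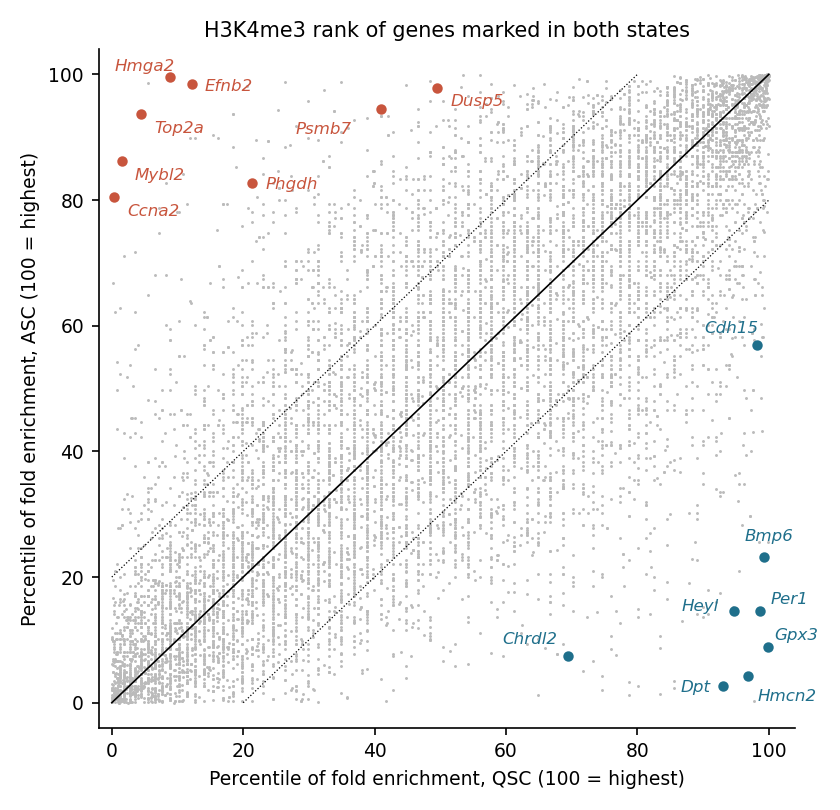
Percentile of the fold of H3K4me3 in ASC (vertical) against QSC (horizontal) for the 11755 genes marked in both states, 1 grey point per gene. The solid line marks equal percentiles and the dotted lines a difference of 20 points. Hmga2, Top2a and Ccna2 lie at the upper left and Gpx3, Per1 and Dpt at the lower right.

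The largest moves to a higher rank in ASC were at Apc2, Hmga2 and Top2a. Hmga2, an architectural chromatin protein of proliferating and embryonic cells, went from percentile 8.93 to 99.6, with folds of 6.05 in QSC and 46.4 in ASC; its peak spanned chromosome 10, 120475028 to 120477302 in QSC and 120472054 to 120478555 in ASC. Top2a went from 4.44 to 93.7. The QSC peak at Top2a lay upstream of the start (chromosome 11, 99024540 to 99024951) and did not overlap the ASC peak over the start (99021721 to 99024290). Mybl2, a transcription factor that drives mitotic genes, went from 1.52 to 86.2, and Ccna2 (cyclin A2) from 0.38 to 80.5. The best QSC peak at Ccna2 also lay beside the ASC peak without overlapping it. Anln, a scaffold of the cleavage furrow, went from 11.9 to 89.9, and Cdca8 from 18.4 to 93.7. Efnb2, the membrane ligand ephrin-B2, went from 12.1 to 98.4. Apc2 (5.49 to 98.7), B3galt4 (20.6 to 98.1) and Man2b1 (15.4 to 90.4) were also among the 10 largest moves, but at each the ASC peak was shared with the start of another gene and the QSC peak was not. The same held at Anln, and at Cdca8 the peak was shared in both states.

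Gpx3, a secreted glutathione peroxidase, went from percentile 99.8 in QSC to 8.92 in ASC, and its domain was 8271 bp and 4104 bp long. The folds at Gpx3 were 31.5 in QSC and 8.85 in ASC, over chromosome 11, 54901908 to 54910178 and 54902414 to 54904788. Hmcn2, the matrix protein hemicentin, went from 96.8 to 4.29, and Dpt, the matrix protein dermatopontin, from 93.03 to 2.71. Per1 went from 98.7 to 14.7, its domain going from 5967 to 2094 bp. Heyl, an effector of Notch signalling that is active in quiescent satellite cells, went from 94.6 to 14.7. Ttyh1 went from 83.5 to 1.32, Slc10a6 from 85.5 to 3.42 and Osgin1 from 95.1 to 14.4. Dpt is also a marker of fibro-adipogenic progenitors, and Gsn, another of the 12 markers, went from 74.6 to 20.1, while Col3a1 went from 23.0 to 32.4 and Col1a2 from 2.22 to 4.91. Jund had the largest fall by this measure (97.8 to 0.21), but its ASC peaks were split and the strong one lay just beyond the 1 kb window. With the highest fold of the merged domain in place of the peak, the difference at Jund was -30.54 points.

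Each list is given by its median percentile difference (ASC minus QSC) and its count of moves of 20 points or more, to be read against 0.17 points over all 11755 genes with 12.0% moved up and 12.3% down. These shares depend on the rank in QSC, since a gene near the top of the scale can hardly move up. The medians were not matched for rank in QSC, and a list high in QSC has more room to fall than to rise. By quintile of the QSC percentile, from low to high, 13.4%, 20.6%, 18.8%, 7.33% and 0% moved up, and 0%, 5.76%, 14.0%, 23.0% and 18.9% moved down. For the lists at either end and the signalling lists, the count at the shares of their members' own quintiles is given beside the observed one.

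Proteasome, oxidative phosphorylation and DNA repair lists had the highest medians. All 29 proteasome genes were marked in both states, 27 of 29 had a higher percentile in ASC, 9 moved up by 20 points or more (2.82 at the quintile shares) and 0 moved down (5.27), with a median of 13.80. Psmb7, a catalytic subunit of the core, went from 40.9 to 94.5, Psma6 from 53.1 to 89.9, Psmc4, an ATPase of the cap, from 25.6 to 65.5, and Psmd2 from 59.5 to 85.7. All 27 oxidative phosphorylation genes were marked in both states, 23 had a higher percentile in ASC, 9 moved up (2.37 at the quintile shares) and 0 down (4.93), with a median of 13.46. With the broad lists the medians of these lists were 5.99 and 7.27. Ndufb8 and Ndufv2, subunits of complex I, went from 51.2 to 92.8 and from 44.8 to 81.6, though with the broad lists the difference at Ndufb8 was -2.68. Uqcrfs1, the iron-sulfur subunit of complex III, went from 68.6 to 92.2, and Atp5o, a subunit of the ATP synthase, from 42.9 to 82.8. Of 27 DNA repair and checkpoint genes, 6 moved up (4.21 at the quintile shares) and 1 down (2.48), with a median of 11.05. Fancd2, of the Fanconi anaemia pathway, went from 52.3 to 90.4, Brca2, of homologous recombination, from 23.8 to 48.0, and the checkpoint kinase gene Atr from 46.5 to 77.1. The 20 aminoacyl tRNA synthetases had a median of 8.78 with 2 up and 0 down, the 25 genes of mitochondrial biogenesis and import 5.07 with 1 up and 1 down, and the 29 splicing factors 4.41 with 3 up and 0 down.

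The circadian clock had the lowest median. Of its 21 genes marked in both states, 13 moved down (3.70 at the quintile shares) and 1 up (1.17), the median difference was -27.03, and the median percentile was 77.9 in QSC and 49.1 in ASC. Beside Per1, the clock repressors Cry2 and Per2 went from 90.7 to 49.1 and from 56.1 to 30.3, and Cry1, short of 20 points, from 87.3 to 71.7. With the broad lists the difference at Cry2 was 9.42, and the median of the clock list was -15.61. The activators Npas2, Clock and Arntl (Bmal1) went from 89.9 to 36.5, from 87.3 to 56.3 and from 92.5 to 65.5. Nr1d2, the nuclear receptor Rev-erb beta of the second loop, went from 77.9 to 34.2, and the output factor Dbp from 72.4 to 30.3. The casein kinase genes Csnk1d and Csnk1e, which act on the PER proteins, went from 80.1 to 52.7 and from 85.5 to 52.6.

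Lists of hormone receptors, nutrient sensing and lipid synthesis had medians below 0. Of 24 nuclear receptors marked in both states, 9 moved down (3.61 at the quintile shares) and 0 up (2.21). Their median was -13.38, and -6.42 with percentiles over all peaks. Rarg, a retinoic acid receptor, went from 85.0 to 38.3, Nr4a1, an immediate early receptor, from 67.7 to 24.3, and Nr3c2, the mineralocorticoid receptor, from 96.1 to 68.1. Of 28 mTOR and nutrient sensing genes, 6 moved down and 2 up, near the 5.46 and 1.74 at the quintile shares (median -11.02, and -4.87 with percentiles over all peaks). Ddit4, an inhibitor of mTORC1, went from 97.8 to 57.7, while Rheb, its activator, went from 62.3 to 90.8 and Stk11 (LKB1) from 66.0 to 94.8. Of 24 genes of cholesterol and fatty acid synthesis, 5 moved down (3.21 at the quintile shares) and 1 up (2.83). Their median was -10.02, and -3.06 with the broad lists. Fasn (fatty acid synthase) stood at 94.2 and 55.6, and Insig1, which holds back SREBP, at 84.6 and 51.8. The cytosolic malic enzyme gene Me1 was the exception, at 19.8 and 56.9. Of 27 autophagy and lysosome genes 6 moved down (4.01 at the quintile shares) and 1 up (2.60). Their median was -5.96, and -1.42 over genes that share no peak. Tfeb, the transcription factor of lysosomal genes, went from 97.8 to 56.9 and Ulk1, the kinase that starts autophagy, from 89.1 to 62.9.

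Signalling lists were mixed. Of 31 TGF-beta and BMP genes, 6 moved down and 1 up, near the 5.24 and 1.80 at the quintile shares (median -4.99), and those that moved down included ligands and a feedback inhibitor: Bmp6 at 99.3 and 23.2, Bmp4 at 95.9 and 28.2, Tgfb3 at 87.8 and 19.1, and Smad6 at 84.6 and 25.1. The receptor gene Acvr2a was the 1 that moved up, from 56.1 to 82.8. Of 35 growth factor receptor and MAPK genes, 6 moved up (2.13 at the quintile shares) and 4 down (6.01), with a median of -2.95. Frs2, an adaptor of the FGF receptors, went from 59.5 to 84.7, and the ERK phosphatases Dusp5, Dusp4 and Dusp6 from 49.6 to 97.9, from 69.4 to 95.1 and from 75.2 to 95.6. With the broad lists the differences at Frs2 and Dusp4 were -0.402 and -5.66. The receptor Fgfr4 went from 95.5 to 60.7. Of 25 Jak-Stat genes 7 moved down (3.71 at the quintile shares) and 3 up (2.39), with a median of -3.53. Osmr, the oncostatin M receptor, stood at 89.1 and 30.3 and Stat3 at 98.9 and 64.8. The feedback genes Socs5 and Ptpn2 stood at 36.9 and 76.5 and at 62.3 and 84.2. Of 21 NF-kB and chemokine genes 7 moved down (3.19 at the quintile shares) and 0 up (1.48), with a median of -1.92. Tnfrsf1a, the TNF receptor, went from 94.8 to 58.3 and Rela from 82.5 to 50.5. Of 22 interferon and antigen presentation genes 5 moved down and 0 up (median -5.66). Of 26 Hippo pathway genes 6 moved up (2.21 at the quintile shares) and 2 down (4.59), with a median of 3.35. Tead4 went from 26.4 to 69.6 and the Yap target Ankrd1 from 26.4 to 60.1, while Ccn2, another Yap target, went from 66.8 to 14.2.

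Muscle stem cell markers kept the mark, and most ranked lower in ASC. Of the 16, 8 moved down (2.91 at the quintile shares) and 1 up (0.541). The median difference was -20.20 points (-8.18 by fold times width), and the median percentile was 93.3 in QSC and 67.2 in ASC. Heyl, Chrdl2 (69.4 to 7.37), Cdh15 (M-cadherin, 98.1 to 56.9), Calcr (57.8 to 19.1), Fgfr4, Megf10, Msc and Cxcr4 were those that moved down, and Vcam1 moved up from 70.2 to 91.1. Pax7 stood at 99.2 and 99.7, Myf5 at 90.4 and 91.5 and Itga7 at 94.0 and 99.8. The 6 pericyte and smooth muscle markers marked in both states had a median of -19.07 (-4.01 by fold times width and -47.38 with equal covered bases). Of these, 3 moved down (0.534 at the quintile shares) and 0 up (0.753). Mcam went from 68.6 to 17.5, Notch3 from 94.6 to 61.5 and Acta2 from 34.9 to 13.1. The part of pericytes and smooth muscle cells in the lower ranks of other genes was not tested.

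Metabolic and chromatin genes moved in both directions. Of 25 genes of serine, one-carbon and amino acid metabolism, 6 moved up and 3 down (median 1.59): Phgdh, the first enzyme of serine synthesis, went from 21.4 to 82.8, Asns (asparagine synthetase) from 3.51 to 56.3 and Tyms (thymidylate synthase) from 19.8 to 68.9. Of 38 genes of DNA methylation and chromatin remodelling, 9 moved up and 11 down (median -3.14), with Uhrf1, which guides maintenance methylation, at 20.8 and 66.8, Hmga1 at 57.8 and 93.9, and the methyltransferase gene Dnmt3a at 64.9 and 37.7. The genes that write, erase and read H3K4 methylation themselves mostly kept their rank: of 33, 1 moved up and 1 down (median 0.37). These were Rbbp5, a core subunit of the writer complexes, at 33.8 and 79.3, and the demethylase gene Kdm5b, at 95.5 and 75.3. Of 26 chaperones 1 moved up and 3 down (median 0.11), and of 28 antioxidant genes 1 moved up and 7 down (median -3.73). The 30 integrin and actin genes had a median of 0.49 with 4 up and 2 down, with Tpm1, a tropomyosin, at 34.9 and 90.8 and Rac1 at 66.8 and 91.1, a difference of -1.41 with the broad lists. The 21 p53 targets had a median of 0.94.

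**Figure D3:**
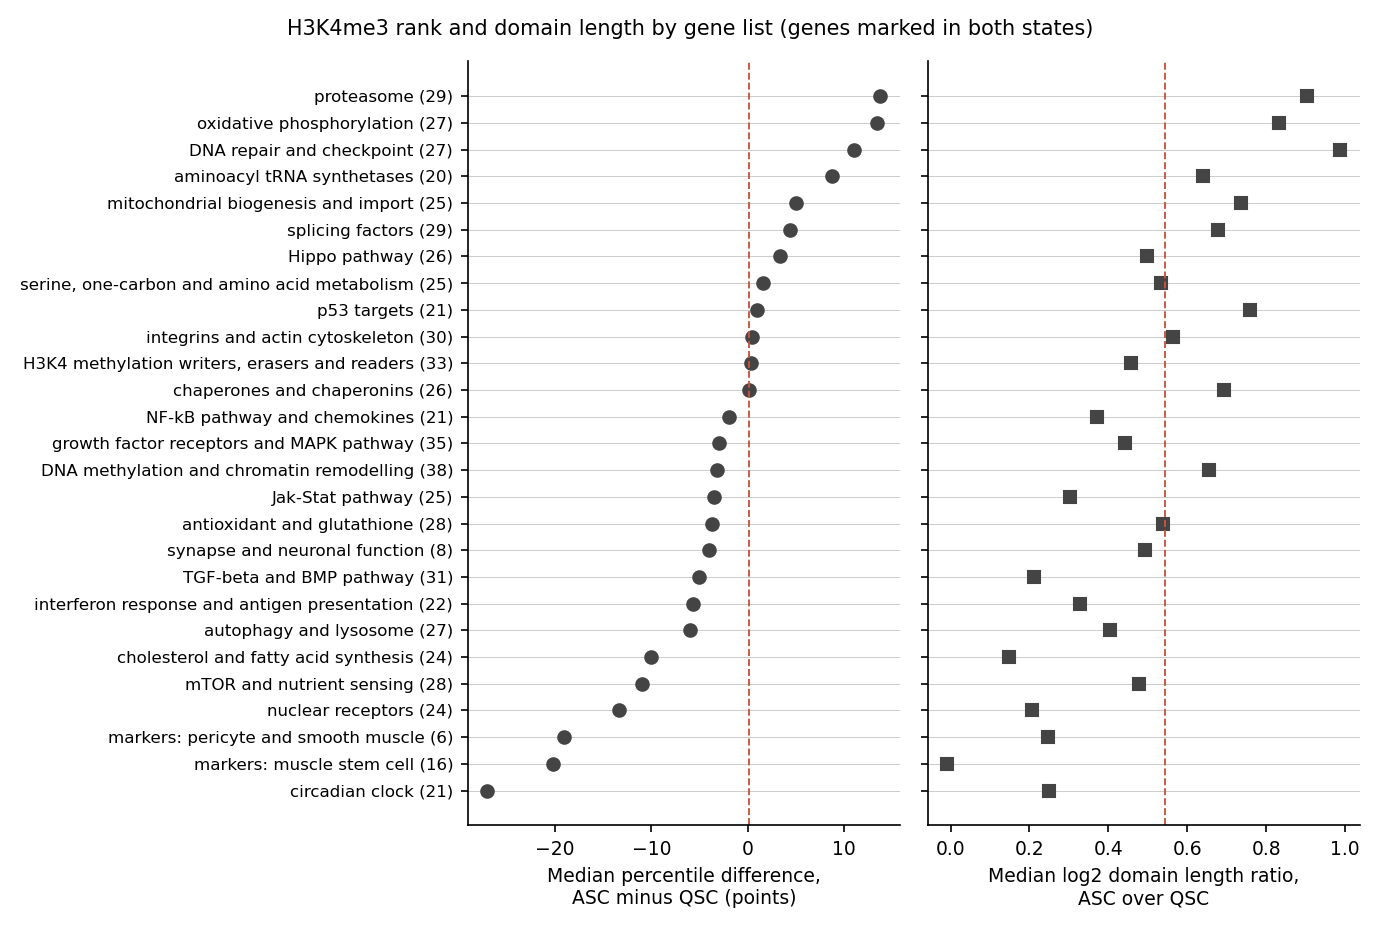
Median percentile difference in fold (left, points, ASC minus QSC) and median log2 ratio of domain length (right, ASC over QSC) for lists with at least 5 genes marked in both states, with that number in parentheses. Dashed lines show the medians over all genes marked in both states, 0.17 points and 0.54. The proteasome list lies at 13.80 points and the clock list at -27.03.

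Domains, meaning narrow peaks joined over gaps of up to 1 kb, were longer in ASC at most genes. Over genes marked in both states the median length went from 1820 bp in QSC to 2728 bp in ASC, the median log2 ratio was 0.54 (1.46-fold), and 90.8% of genes had the longer domain in ASC. A domain 2-fold or more longer in ASC was found at 1602 genes (13.6%) and one 2-fold or more shorter at 68 (0.578%). At the thresholds, Cstf3 (log2 ratio 1.00) lay inside and Nup155 (0.999) outside on the longer side, and Foxo6 (-1.01) inside and Scube1 (-0.99) outside on the shorter side. The ratio went with the length in QSC. Genes with a QSC domain under 1 kb had a median log2 ratio of 0.89, and 41.8% of them had a domain at least 2-fold longer in ASC. Those of 1 to 2 kb had 0.62, those of 2 to 4 kb 0.47, those of 4 to 8 kb 0.19, and the 42 genes above 8 kb had 0.06, with 35.7% of these shorter in ASC.

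The added length lay mainly inside the gene. Among 7048 genes with 1 start lying inside the domain in both states, the domain reached a median of 613 bp upstream and 1132 bp downstream of the start in QSC, and 831 bp upstream and 1775 bp downstream in ASC. The median gain was 225 bp upstream and 580.5 bp downstream, and the downstream gain was the larger at 71.9% of these genes. The summit of the strongest peak lay a median of 284.5 bp downstream of the start in QSC, and 335 bp in ASC. In 11907 pairs of peaks that overlapped each other and no other peak, summits differed by a median of 86 bp, and the QSC peak lay wholly inside the ASC peak in 67.7% of pairs and the reverse in 5.14%.

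**Figure D4:**
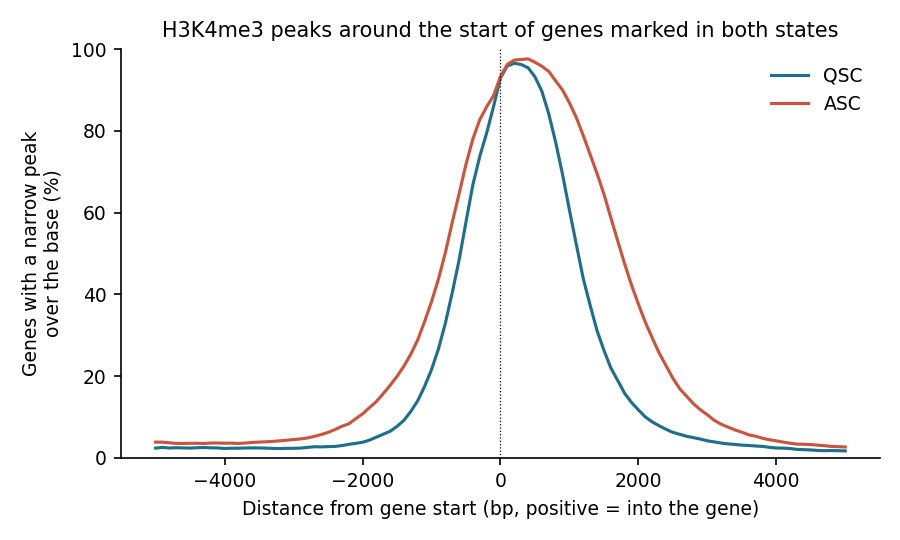
Share of genes marked in both states (%, vertical) with a narrow peak over each position from 5 kb upstream to 5 kb downstream of the gene start (horizontal, bp, positive into the gene), for genes with a single listed start. Lines are QSC and ASC, and the dotted line is the start. The ASC profile is broader, more so on the downstream side.

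Lists also differed in length change, to be read against a median log2 ratio of 0.54 and 13.6% of genes with 2-fold longer domains, and against the length groups just given, since short QSC domains gained the most. DNA repair genes, with a median QSC domain of 1186 bp, had a median of 0.99 against 0.62 for the length groups of their members. Of the 27, 13 had a domain at least 2-fold longer in ASC, against 5.02 at the shares of those groups: Fancd2 went from 1164 to 3047 bp and Chek2 from 600 to 2415 bp, though with the broad lists the log2 ratio at Chek2 was -0.519. Proteasome genes had 0.90, with 10 of 29 at least 2-fold longer (4.30 at the group shares), and oxidative phosphorylation genes 0.83, with 4 of 27 (3.08), both against 0.62. Circadian genes had 0.25, nuclear receptors 0.21, TGF-beta and BMP genes 0.21 and cholesterol and fatty acid genes 0.15, each against 0.47 for the length groups of its members. The muscle stem cell markers, with a median QSC domain of 5223 bp, had -0.01 against 0.19: Pax7 spanned 17118 and 16898 bp, Sdc4 (syndecan 4) 11900 and 8338 bp, Cdh15 5537 and 2659 bp, and Myf5 6277 and 11821 bp. Single genes with longer domains in ASC included Phgdh (1303 and 4136 bp), Tpm1 (2302 and 8756 bp), Id2 (3286 and 9192 bp) and Lgals3, the lectin galectin 3 (544 and 4457 bp). Hoxa6 had the largest ratio (1676 and 33096 bp), because in ASC its peak was joined with those of neighbouring Hox genes. Among the 68 genes with shorter domains were Htra3, a secreted protease (11373 and 2285 bp), Mmp2, a matrix protease (2281 and 657 bp), Ttyh1 (2882 and 889 bp), Tmem51 (5156 and 1574 bp) and Fitm1 (4494 and 1267 bp).

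**Figure D5:**
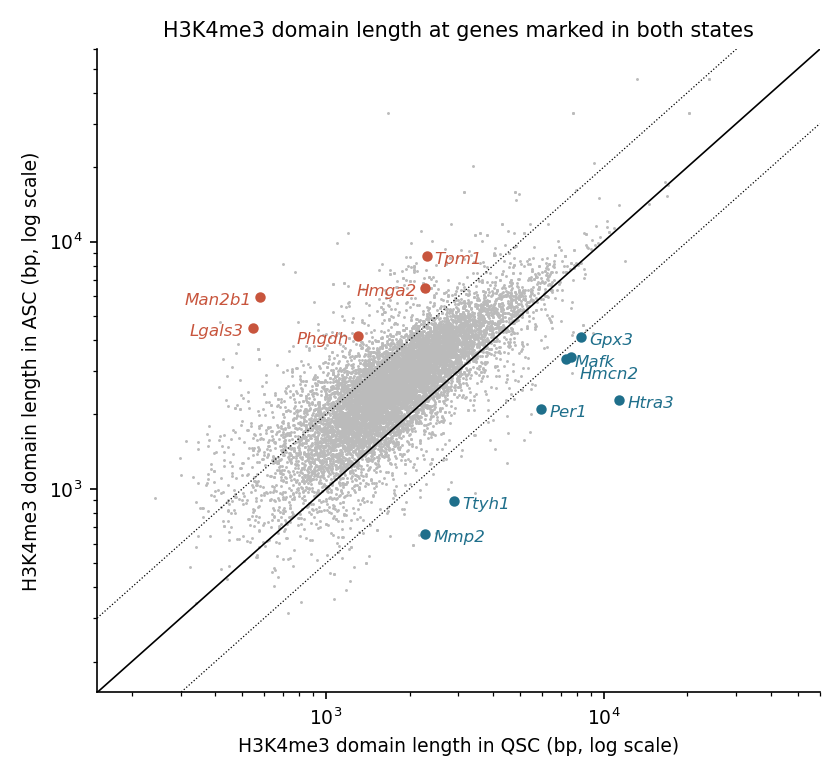
Length of the H3K4me3 domain in ASC (vertical, bp, log scale) against QSC (horizontal, bp, log scale) at the 11755 genes marked in both states, 1 grey point per gene. The solid line marks equal length and the dotted lines a 2-fold difference. Most points lie above the solid line, and Htra3, Gpx3 and Per1 lie below it.

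Genes marked in a single state were mostly weak in that state, with a median fold of 4.38 for the 161 QSC-only genes and 5.6 for the 721 ASC-only genes, against 12.1 and 22.6 for genes marked in both. The genes named here are those whose peak overlapped no narrow peak of the other state, so other single-state genes can have folds as high. Of these, the strongest in QSC only were Vwa1, a matrix protein (fold 13.4, chromosome 4, 155771999 to 155774799), Il11ra1, the interleukin 11 receptor (12.8), Ypel4 (11.9) and Foxred2 (11.6). Below these came Rarres2, the secreted protein chemerin (9.92), Fxyd1, a regulator of the sodium pump (9.57), Hsd11b1, which regenerates active glucocorticoid (7.26), and Thbs2, the matrix protein thrombospondin 2 (7.26). The strongest in ASC only, by the same rule, reached higher folds. Pclaf, a partner of the replication clamp PCNA, had a fold of 28.2 (chromosome 9, 65889887 to 65892511), Chaf1a, a subunit of the assembly factor that lays nucleosomes on new DNA, 24.9, Shcbp1 26.0, Cdc20 23.8, and Bub1, a spindle checkpoint kinase, 21.9. Rin1 (28.5), Parvb (24.9) and Iqgap3 (21.9), which act on Ras signalling, adhesion and the cytoskeleton, and the potassium channel gene Kcnn4 (21.9) were also among the 10. The ASC peak at Rin1 and the QSC peak at Rarres2 were each shared with the start of another gene. Of these 10 ASC peaks, those at Rin1 and Kcnn4 lay over no QSC broad peak. Of the 10 QSC-only peaks chosen by the same rule, the one at Hsd11b1 lay over no ASC broad peak. With the broad lists in place of the narrow ones, 17 of the 20 genes were no longer single-state. Most peaks of those broad lists had a fold below 3 (94.5% in QSC and 59.9% in ASC).

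H3K27me3 covered at least 500 bp of the start window at 11.1% of the genes marked in both states in QSC and at 15.8% in ASC. It was more common at single-state genes: 45.3% and 67.7% of QSC-only genes, in QSC and ASC, and 63.4% and 65.5% of ASC-only genes. Over all protein-coding genes the shares were 24.9% in QSC and 30.0% in ASC. At genes unmarked in both states they were 39.1% and 44.6%, not far below the 45.3% of QSC-only genes in QSC. Genes that moved up by 20 points had it at 6.11% in QSC and 5.61% in ASC, and genes that moved down at 6.86% in QSC and 20.6% in ASC. Npas2, Arntl, Bmp4, Bmp6, Smad6, Calcr and Chrdl2 were among those that moved down with the H3K27me3 call in ASC and not in QSC. Genes whose domain was at all shorter in ASC (1083) had it at 18.6% and 35.9%. The H3K27me3 lists differ in length between the states too, so these shares are a description of the lists.

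Promoters of the genes that moved up were rich in CpG and in CCGGAAG. The observed to expected CpG ratio had a median of 0.843 at genes that moved up, 0.737 at genes that moved down, 0.796 at all genes marked in both states and 0.194 at unmarked genes. CCGGAAG was in 25.2% of the promoters of genes that moved up, 11.7% of those that moved down and 19.5% of those marked in both states. It was in 9 of 23 proteasome promoters (39.1%) and 12 of 24 promoters of mitochondrial biogenesis and import, a list with 1 gene moved up, but in 3 of 18 promoters of oxidative phosphorylation (16.7%), a list with 9. TTTGAA was in 15.4% of the promoters of genes that moved up, 8.77% of those that moved down and 10.8% of those marked in both states. CCAAT was in 41.2% of the promoters of genes that moved up, 46.2% of those with a domain 2-fold longer in ASC and 38.7% of those marked in both states. GCGGGAA, a form of the E2F site, was in 9 of 20 DNA repair promoters (45.0%), 9.22% of those marked in both states and 6.04% of all. The other motifs searched were TATAAA (13.2% of all promoters), TGACTCA (4.52%), TGACGTC (4.05%), CAGCTG (15.0%), GGGCGGG (34.4%) and GCATGCG (4.54%). CACGTG was in 5 of 17 circadian promoters (29.4%), Per1 and Cry1 among them, and in 10.6% of those marked in both states, while genes that moved down had it in 10.4% of promoters. Lists that did not have lower medians held it as often or more often, with 34.8% of Hippo and 30.8% of aminoacyl tRNA synthetase promoters, and autophagy and germ line lists had 38.1% and 39.1%. A match in these windows is a description of the letters and not a measured binding site.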

How the data were processed

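Per the labels' protocols, chromatin of sonicated nuclei was immunoprecipitated and the bound DNA tagmented on the antibody (ChIPmentation, TruePrep kit of Vazyme) and sequenced on a NextSeq 500. The submitters' processing notes name MACS2 2.1.1, Bowtie2 2.3.2, Trimmomatic 0.36, SAMtools 1.3, Picard 2.9.2, bedtools 2.26.0 and bcl2fastq 2.19, and the build mm10. Their settings and any pooling of replicates before calling were not given in the sources used here. The deposited lists give, per peak, the fold over background as a linear ratio, the −log10 of its q-value and its summit position. Numbers in the peak names show that the deposited lists hold 63.2% (QSC) and 62.0% (ASC) of the peaks first numbered. Read depth is unknown, no interval that needs counts is given, and signal tracks were not used here.

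Each state has a single list of each kind, narrow or broad, so no p-value was computed and the planned omission of each replicate could not be made. Windows of 1 kb either side of the start came from the RefSeq promoter table (GRCm38.p6) for 17492 protein-coding genes, and from both ends of the gene record for 4395. Overlap needed 1 bp, domains joined gaps of up to 1 kb, and tied folds shared their mean rank. An H3K27me3 call needed 500 bp of broad peak in the window. The members and the 34 gene lists were chosen with earlier results of these data known. Of 872 list symbols, 869 matched. Named genes are the 10 highest by fold in each state and the 10 largest differences each way in rank and in domain length. Added to them are the 10 strongest genes of each single state whose peak overlapped no narrow peak of the other state. Members of the lists complete them, and provisional symbols were left out. Some of these are not reported here, and list examples were picked with their values seen. Counts were made in Python 3.11.15 with pandas 2.3.3 and numpy 2.4.6, checked on simulated peaks, and plotted with matplotlib 3.10.9. Alternatives varied the thresholds, list lengths, windows, overlaps, merging gaps, ranking measure and peak list. Those chosen after seeing the data were the highest fold of the merged domain, best peaks that overlap, unshared peaks, ranks with equal numbers of peaks or equal covered bases, and no overlapping narrow peak of the other state.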

Additional observations from a re-analysis of the deposited data

How the results depend on the processing

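No paired analysis was possible because neither the narrow nor the broad list of a state holds replicates. Presence depended on the lists compared. With equal numbers of peaks, 317 genes were marked in QSC only (an excess of 181 in ASC), and 1146 QSC and 1206 ASC peaks had no partner. With equal covered bases, 8303 genes were marked in ASC, 3665 in QSC only and 52 in ASC only (excess -3613), 6172 and 30 peaks had no partner, and 1054 domains were 2-fold longer and 32 shorter. With the broad lists the QSC-only count was 1763 (excess -1238), 163587 and 9787 peaks had no partner, 573 domains were 2-fold shorter and the median log2 length ratio was 0.18. Over all annotated genes the counts were 247 and 1130 (excess 883). A reciprocal overlap of 50% left 3390 QSC and 4905 ASC peaks without a partner, and a −log10 q of at least 5 left 465 in QSC. Percentiles over all peaks gave 662 genes lower by 20 points.

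Counts of moved genes differed by less than 1.5 times from those reported under the other alternatives, equal numbers of peaks (1429 and 1452) and equal covered bases (1462 and 1507) included. Over 12 alternatives the median difference kept its sign but not its size: 5.99 to 19.47 for the proteasome, 7.27 to 18.22 for oxidative phosphorylation, 9.26 to 16.21 for DNA repair, -39.27 to -15.61 for the clock, -28.70 to -8.18 for muscle stem cell markers, -24.21 to -6.42 for nuclear receptors, -15.75 to -4.87 for mTOR, -16.11 to -3.06 for cholesterol and fatty acid, -9.12 to -1.42 for autophagy and -47.38 to -4.01 for pericyte genes. The medians of chromatin remodelling, H3K4 methylation, chaperone, integrin and actin, and serine and one-carbon genes changed sign under 2 or 3 of them. With equal covered bases the median log2 length ratio was -0.0433 for the clock, and with the broad lists it was -0.0847 for TGF-beta and BMP, -0.0635 for nuclear receptors, -0.0406 for antioxidant, -0.239 for synaptic and -0.000326 for interferon genes. Single values also turned. With the broad lists the log2 length ratio was -0.146 at Brca2, -0.519 at Chek2 and -0.00127 at Psma6, and the percentile difference 9.42 at Cry2, -5.66 at Dusp4, -0.402 at Frs2, -12.9 at Man2b1, -2.68 at Ndufb8 and -1.41 at Rac1. The length ratio was -0.0786 at Apc2 with a gap of 3 kb and -0.0472 at Hoxa6 with no merging or the widest single peak. The cause was not tested.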

Other observations

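Lists of genes from other tissues carried the mark less often than the 54.4% (QSC) and 57.0% (ASC) of all protein-coding genes. Of 28 synaptic and neuronal genes, QSC had 9 (32.1%) and ASC 12 (42.9%) with the mark, and the call differed at 5, against 3.29% of all genes marked in ASC only and 0.736% in QSC only. Syn1, Slc17a7, Tubb3 and Gap43 were called in ASC only, with folds of 3.43, 3.79, 6.32 and 5.24, and Nefm, a neurofilament subunit, in QSC only with 4.22. Of 30 germ line genes, QSC had 1 and ASC 3. The additions in ASC were Dazl (fold 4.15) and Tex14 (11.9), and Gdf9 was marked in both states. Of 28 liver genes, 2 were marked in each state, and Alb and Apob were unmarked.

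Some lists with medians near 0 had members that moved by 20 points or more. Among 21 p53 targets marked in both states, Btg2, an antiproliferative gene, went from percentile 99.2 to 71.0 and Gadd45a from 95.5 to 69.6, and of the inhibitors of p53, Mdm2 went from 78.7 to 50.5 and Mdm4 from 40.9 to 67.4. Among the 26 chaperones, Hspb1, a small heat shock protein, went from 66.8 to 20.5 and Cct8, a chaperonin subunit, from 72.5 to 96.8. Hsp90ab1 went from 99.3 to 83.8 while its domain lengthened from 4519 to 11050 bp.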
